A study of Homo sapiens with 8 samples.

Results

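The genes of HLA class I antigen presentation were examined in MDA-MB-231 cells with and without carboxymethyllysine (CML). The 9 members were taken by their symbols from the table of expression values, out of 17649 genes in all, by a rule that uses no measured value. The symbols themselves were chosen with earlier results of these data known. The members are HLA-B, HLA-C and HLA-E (heavy chains), B2M (the light chain), TAP1, TAP2 and TAPBP (peptide loading), and PSMB8 and PSMB9 (immunoproteasome). The line MDA-MB-231 was grown from a human breast cancer that lacked the estrogen receptor, and CML is an advanced glycation end product, in which lysine has reacted with a sugar or a product of its breakdown. RNA-Seq was done on 4 libraries of cells that received 1 μM CML for 48 hours and on 4 libraries of control cells that received PBS, all in medium with 5 mM glucose. All libraries come from 1 cell line and 1 time, and the labels number the replicates of each group without saying how the cultures were kept apart, so that p-values measure the spread between these libraries.

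A class I molecule holds a short peptide at the cell surface, where CD8+ T cells and natural killer cells read it. Proteasomes cut proteins into peptides, the TAP transporter carries the peptides into the endoplasmic reticulum, and tapasin with its chaperones loads them onto a heavy chain bound to beta-2-microglobulin. Interferon-gamma is known to induce this gene group through IRF1 and NLRC5, and loss of its expression is a known route by which tumors escape T cells.

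Each library held between 16161802 and 18954732 estimated reads, and 1 read was worth between 0.0535 and 0.0622 CPM (the read count scaled to the size of its library). Depth did not separate the groups (2-sided exact permutation test over 70 labellings, p = 0.714, where the smallest possible p is 0.0286). Of the markers checked for the line, the control cells held VIM at a mean of 4068 CPM, EGFR at 923 CPM, CD44 at 832 CPM and the keratins KRT18 and KRT8, which luminal cells also express, at 329.7 and 213 CPM, while PGR was at 0.0285 CPM. ESR1, the gene of the estrogen receptor, was also listed for the line and was not among the 17649 genes. Of 9 markers of blood and endothelial cells, 3 were among these genes and were analysed, and 6 were not among them. The summed level of the 3 analysed markers lay between 4.27 and 5.56 CPM in control and between 3.42 and 4.997 CPM in CML libraries. In such bulk libraries a smaller share of expressing cells and less RNA per cell cannot be told apart.

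All members except B2M lie in the major histocompatibility complex on chromosome 6, and B2M lies on chromosome 15 at chr15:44711517-44718145 (RefSeq, GRCh38.p14). HLA-B (chr6:31353875-31357179) and HLA-C (chr6:31268749-31272092) are neighbours 81782 bases apart. In the class II region, TAP2 (chr6:32821831-32838739), PSMB8 (chr6:32840717-32844679), TAP1 (chr6:32845209-32853704) and PSMB9 (chr6:32854192-32859851) follow each other. PSMB8 and TAP1 are 529 bases apart, and TAP1 and PSMB9 are read away from each other across a gap of 487 bases. HLA-E lies at chr6:30489509-30494194 and TAPBP at chr6:33299694-33314078. The 3′ end of TAPBP overlaps RGL2 by 1919 bases, and the antisense RNA PSMB8-AS1 overlaps TAP1 by 1292 bases and PSMB8 by 594 bases. RGL2 averaged 103.5 CPM and PSMB8-AS1 2.56 CPM over the 8 libraries, and since the strand setting of the counting is not given in the sources used here, reads from the overlapped stretches cannot be assigned with certainty.

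The 250 bases before the start of a gene were read from RefSeq for the 8 members with an entry, and 4 of them are shown: HLA-B and HLA-C, whose levels over the 8 libraries had a Pearson r of 0.82, B2M, which had an r of -0.80 with HLA-B, and TAP1, the member with the smallest p. Letters run 5′ to 3′ on the strand of the gene, and capitals mark matches on either strand to the IRF recognition motif AANNGAAA, an NF-kappaB-like motif (GGG, any 2 bases, TT, any base, CC) and the CCAAT box. The windows lie at chr6:31357180-31357429 for HLA-B (minus strand), chr6:31272093-31272342 for HLA-C (minus strand), chr15:44711267-44711516 for B2M (plus strand) and chr6:32853705-32853954 for TAP1 (minus strand).
HLA-B: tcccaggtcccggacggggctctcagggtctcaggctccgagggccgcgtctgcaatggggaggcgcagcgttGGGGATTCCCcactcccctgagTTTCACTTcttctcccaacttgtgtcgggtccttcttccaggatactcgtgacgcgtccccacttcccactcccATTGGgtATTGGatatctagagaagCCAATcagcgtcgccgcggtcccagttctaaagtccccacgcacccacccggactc
HLA-C: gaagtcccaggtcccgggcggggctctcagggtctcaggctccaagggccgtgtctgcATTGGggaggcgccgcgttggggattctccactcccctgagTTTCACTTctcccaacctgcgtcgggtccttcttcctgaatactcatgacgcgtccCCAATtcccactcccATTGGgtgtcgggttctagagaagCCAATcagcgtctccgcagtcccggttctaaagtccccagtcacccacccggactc
B2M: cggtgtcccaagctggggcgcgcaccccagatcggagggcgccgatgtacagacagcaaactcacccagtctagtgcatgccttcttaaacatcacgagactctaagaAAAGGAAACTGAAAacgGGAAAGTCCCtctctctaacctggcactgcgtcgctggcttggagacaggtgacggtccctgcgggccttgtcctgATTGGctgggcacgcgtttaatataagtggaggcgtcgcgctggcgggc
TAP1: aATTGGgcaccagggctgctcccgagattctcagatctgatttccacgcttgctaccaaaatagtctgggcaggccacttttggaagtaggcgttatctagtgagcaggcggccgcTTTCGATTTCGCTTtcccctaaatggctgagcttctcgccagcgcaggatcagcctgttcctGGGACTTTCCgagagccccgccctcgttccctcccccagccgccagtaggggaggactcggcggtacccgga

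The HLA-B and HLA-C windows were identical at 226 of 246 aligned bases (91.9%), against 55.3% to 69.7% between the other pairs of members. Both carried 1 IRF match in the reverse orientation, TTTCACTT, at 155 bases before the start in HLA-B and at 151 bases in HLA-C. HLA-B also had the NF-kappaB-like run GGGGATTCCC a few bases before it, and the stretch of HLA-C at that place did not match these letters. B2M and TAP1 each had a pair of IRF matches that overlap by 2 bases, written out above as AAAGGAAACTGAAA and TTTCGATTTCGCTT, and 1 NF-kappaB-like match. Over the 8 members, 6 held an IRF match (HLA-B, HLA-C, B2M, TAP1, TAP2 and TAPBP), compared with 20.3% of 35116 promoter windows, and 4 held an NF-kappaB-like match (HLA-B, B2M, TAP1 and TAPBP), compared with 5.07%. A CCAAT box was found in 5 members and 32.0% of all windows, and TGACG, the core of a cyclic AMP response element, in 6 members and 21.2% of all windows. The PSMB9 window, at chr6:32853942-32854191, overlaps that of TAP1. The CCAAT box counted for TAP1 and the one counted for PSMB9 are the same bases, read on opposite strands. A match describes letters in a window and does not show that a factor binds there.

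The members spanned a wide range of levels in untreated cells. Per kilobase of the canonical transcript, B2M was highest in control libraries at 700.4 ± 28.0 CPM per kb (SD, n = 4), at percentile 99.5 of the 12929 genes that averaged 1 CPM or more. HLA-B at 212 ± 13.7 and HLA-E at 204 ± 5.95 CPM per kb followed, and these neighbours did not differ beyond their spread. HLA-C was at 74.1 ± 9.04 and TAPBP at 64.1 ± 2.48 CPM per kb, which left the means about 1 SD of HLA-C apart. PSMB8 at 42.8 ± 1.57, TAP1 at 26.1 ± 1.94 and TAP2 at 21.6 ± 0.511 CPM per kb stood lower, in that order and each apart from its neighbours by more than 1 SD. PSMB9, a catalytic subunit that interferon-gamma induces, was lowest at 6.12 ± 0.984 CPM per kb (percentile 41.9). The level order holds for these gene models only, since heavy chain genes are polymorphic and alike in sequence and their reads can be shared or lost. HLA-B and TAP2 had no library whose value was a whole number of reads, whereas B2M, TAP1, TAPBP and PSMB8 had whole reads in all 8 libraries (within 0.02 of a read).

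Between CML-exposed and control cells, none of the 9 members passed the adjusted p of 0.3 that the study uses for this experiment (limma on log2(CPM + 1), Benjamini-Hochberg over all genes), and none had an unadjusted p under 0.05. Over all 17649 genes, 158 passed the threshold of 0.3 (0.895%) and none passed 0.05 (0%), and 7.66% had an unadjusted p under 0.05. The groups overlapped in every member, whereas they did not overlap in 3.95% of the genes with a value above 0. The fitted value was higher with CML for 7 members and lower for 2 (53.5% of all genes were higher), and the median log2 fold change of the 9 members was 0.01, beside 0.01 over all genes. Among genes averaging 1 CPM or more, as all members did, 58.8% were higher. The 95% intervals reached no more than 8.66% in either direction for HLA-B, HLA-E, B2M, TAP2, TAPBP and PSMB8, and they were wider for HLA-C, TAP1 and PSMB9.

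**Figure D1:**
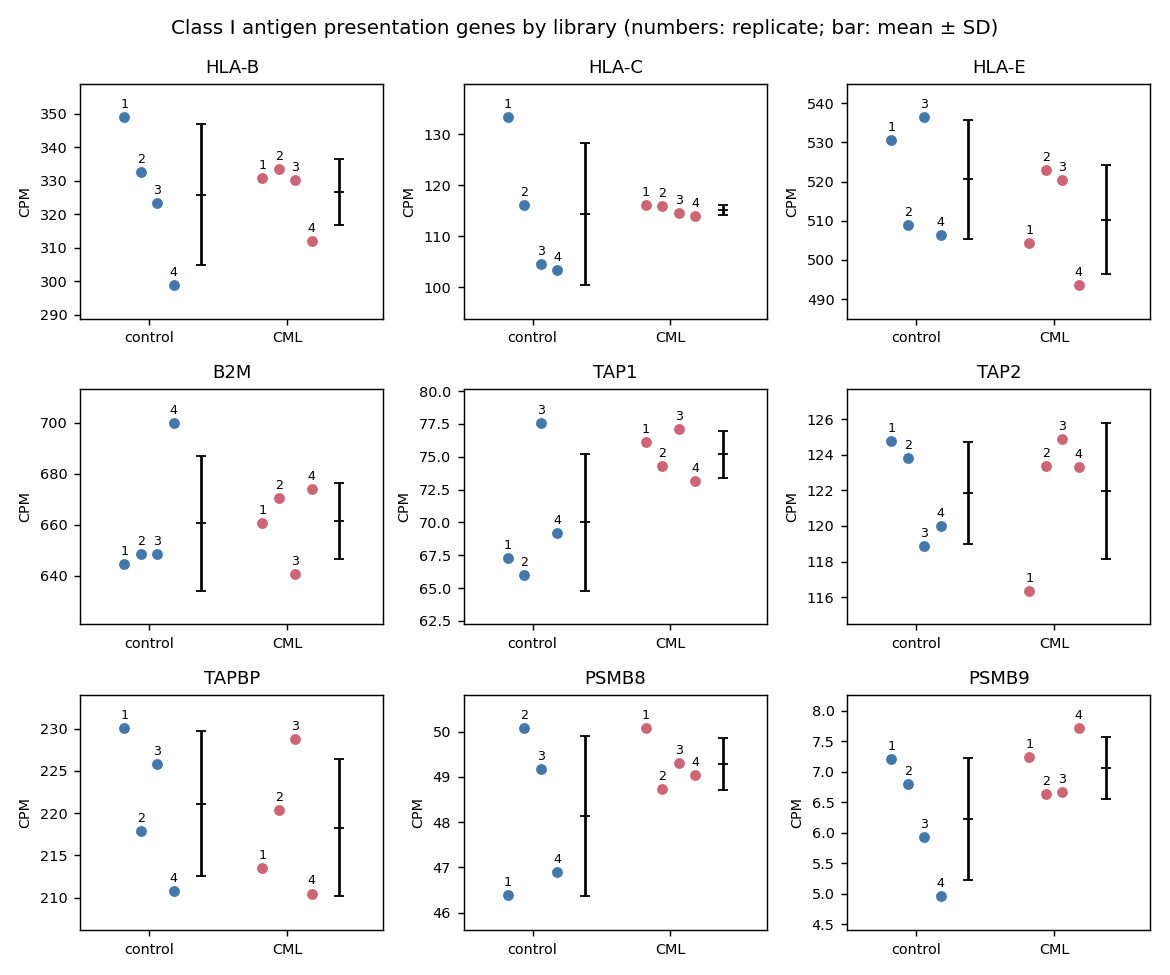
CPM of each of the 9 members (vertical axes, which do not start at 0) in the 4 control (blue) and 4 CML (red) libraries, with the replicate number at each point and black bars for the mean ± SD. The groups overlap in every panel, and the control points spread more widely than the CML points in all panels except TAP2.

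HLA-B presents peptides to CD8+ T cells. It was at 349, 333, 323 and 299 CPM in control replicates 1 to 4 and at 331, 334, 330.2 and 312 CPM in CML replicates 1 to 4. Replicate 4 was the lowest library of each group, and all CML values lay inside the control range. The means were 326 ± 21.0 CPM in control and 327 ± 9.84 CPM in CML (SD, n = 4). The log2 fold change was 0.01 with an SE of 0.05 (limma adjusted p = 1), or a change of 0.353% with a 95% interval of -7.32% to 8.66%.

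HLA-C presents peptides and is a main ligand of the killer-cell immunoglobulin-like receptors of natural killer cells. It was at 133, 116, 104 and 103 CPM in control replicates 1 to 4 and at 116, 116, 115 and 114 CPM in CML replicates 1 to 4. The control libraries spread around a tight CML group, with a coefficient of variation of 12.2% against 0.881%. The log2 fold change was 0.02 with an SE of 0.08 (limma adjusted p = 1), and the interval of the change ran from -11.1% to 15.3%.

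HLA-E presents leader peptides of other class I molecules to the CD94/NKG2A receptor. It was at 531, 509, 536 and 506 CPM in control replicates 1 to 4 and at 504, 523, 520.3 and 494 CPM in CML replicates 1 to 4. CML replicate 4 was the lowest and control replicate 3 the highest of the 8 libraries, and 1 of 4 CML libraries was above the control mean. The log2 fold change was -0.03 with an SE of 0.03 (limma adjusted p = 0.902), with an interval of the change from -6.39% to 2.64%.

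B2M encodes beta-2-microglobulin, which every classical class I heavy chain needs to reach the surface. It was at 645, 649, 648 and 699.9 CPM in control replicates 1 to 4 and at 661, 670.3, 641 and 674 CPM in CML replicates 1 to 4. Control replicate 4, the lowest library for HLA-B, was the highest for B2M. On the log2 scale the fold change was 0.00 with an SE of 0.03 (limma adjusted p = 1), and the interval of the change ran from -4.92% to 5.56%. The summed heavy chain level of HLA-B, HLA-C and HLA-E lay between 909 and 1013 CPM in control and between 920 and 972 CPM in CML libraries.

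Among the peptide loading genes, TAP1, a subunit of the peptide transporter, had the smallest p of the members. It was at 67.3, 66.0, 77.6 and 69.2 CPM in control replicates 1 to 4 and at 76.1, 74.3, 77.1 and 73.2 CPM in CML replicates 1 to 4. All 4 CML libraries were above the 3 lower control libraries, and control replicate 3 was above all of them. The means were 70.02 ± 5.22 and 75.2 ± 1.76 CPM (SD, n = 4). The log2 fold change was 0.10 with an SE of 0.05 (limma adjusted p = 0.728), or a change of 7.45% with an interval of -1.15% to 16.8%. Without control replicate 3 the fold change was 0.15 and passed the threshold of 0.3 (limma adjusted p = 0.265), in a fit where 72 of all genes passed (0.408%). Whether TAP1 passed the threshold thus depended on 1 control library.

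TAP2, the partner of TAP1 in the transporter, had values that varied little. It was at 125, 124, 119 and 120.0 CPM in control replicates 1 to 4 and at 116, 123, 125 and 123 CPM in CML replicates 1 to 4. Its log2 fold change was 0.00 with an SE of 0.03 (limma adjusted p = 1), and the interval of -4.30% to 4.66% was the narrowest of the 9 in its largest bound. The difference between the TAP1 and TAP2 fold changes was not tested.

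TAPBP encodes tapasin, which holds the heavy chain at the transporter and edits its peptide. It was at 230.04, 218, 226 and 211 CPM in control replicates 1 to 4 and at 213.5, 220.4, 229 and 210.5 CPM in CML replicates 1 to 4. Replicate 4 was again the lowest of each group. Its log2 fold change was -0.02 with an SE of 0.04 (limma adjusted p = 0.989) and an interval of the change from -6.99% to 4.78%.

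The immunoproteasome subunits PSMB8 and PSMB9 take the places of the constitutive subunits PSMB5 and PSMB6 and change which peptides the proteasome makes. PSMB8 was at 46.4, 50.1, 49.2 and 46.9 CPM in control replicates 1 to 4 and at 50.1, 48.7, 49.3 and 49.03 CPM in CML replicates 1 to 4. All 4 CML libraries were above the control mean and between the lower and the higher pair of control libraries or level with the higher pair. The PSMB8 fold change of 0.03 on the log2 scale had an SE of 0.03 (limma adjusted p = 0.894), and it was 0.02 without control replicate 1 and 0.05 without control replicate 2. PSMB9 was at 7.21, 6.80, 5.93 and 4.96 CPM in control replicates 1 to 4 and at 7.24, 6.63, 6.68 and 7.72 CPM in CML replicates 1 to 4. Here too all 4 CML libraries were above the control mean, and control replicate 4 was the lowest of the 8. The PSMB9 fold change of 0.17 on the log2 scale had an SE of 0.11 (limma adjusted p = 0.833), and its interval of -6.29% to 34.6% was the widest of the members. Without control replicate 4 the PSMB9 fold change was 0.08, and with any other library left out it lay between 0.13 and 0.23. It rested on 87 to 125 estimated reads per library, compared with 778 or more for each other member.

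**Figure D2:**
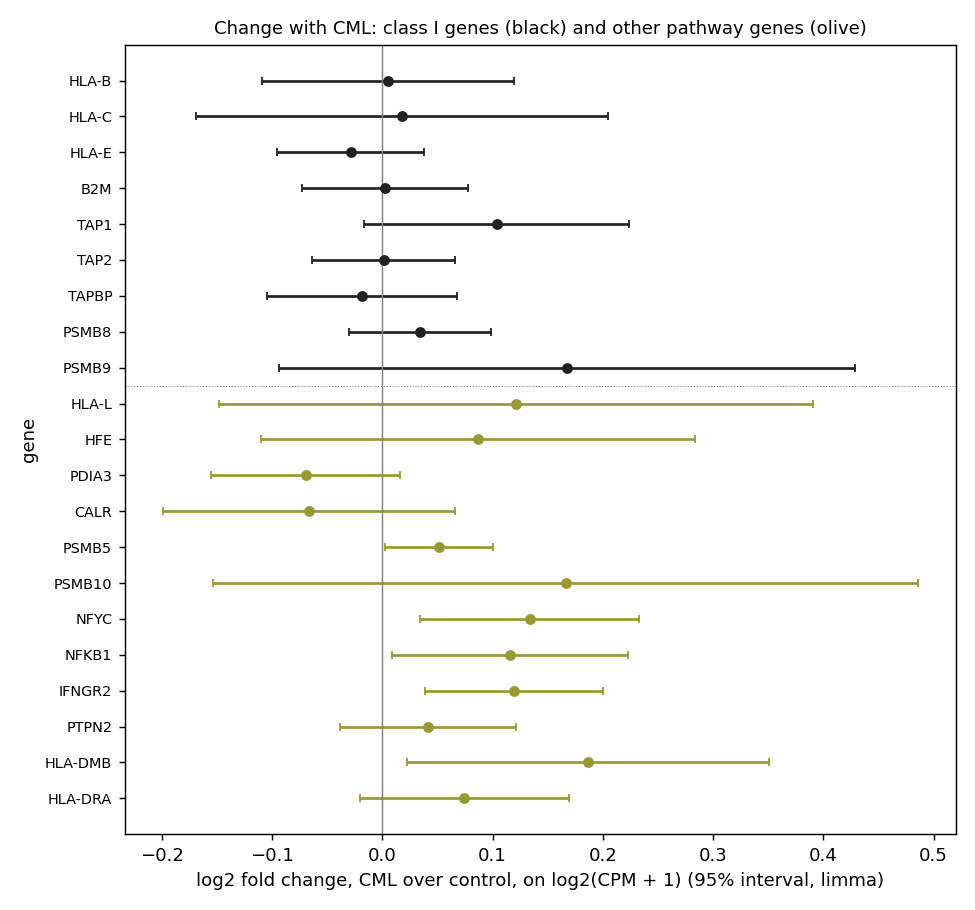
Log2 fold change of CML over control on log2(CPM + 1) (horizontal axis) for the 9 members (black) and for other genes of the pathway (olive), with 95% intervals from limma. The intervals of all 9 members include 0, and those of PSMB5, NFYC, NFKB1, IFNGR2 and HLA-DMB lie above 0 before adjustment for the number of genes.

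The balance of immunoproteasome and constitutive subunits was compared as a ratio of CPM values within each library. PSMB8 stood at 42.05 ± 1.97% of PSMB5 in control and at 41.5 ± 0.946% in CML libraries (SD, n = 4), a log2 difference of -0.02 with a 95% interval of -0.11 to 0.08 (2-sided exact permutation test, p = 0.657, adjusted over 3 ratios 0.657). PSMB9 stood at 6.28 ± 1.06% of PSMB6 in control and at 7.01 ± 0.739% in CML libraries, a log2 difference of 0.17 (-0.19 to 0.53, exact p = 0.314, adjusted 0.557). PSMB10, the third catalytic immunosubunit, stood at 7.16 ± 1.42% of PSMB7 in control and at 7.98 ± 0.505% in CML libraries, a log2 difference of 0.18 (-0.20 to 0.55, exact p = 0.371, adjusted 0.557). Without control replicate 4 these differences were 0.07 for PSMB9 and 0.06 for PSMB10. Constitutive subunits thus exceeded the induced ones in all 8 libraries. In control libraries the PSMB9 ratio was 7.32%, 7.004%, 5.71% and 5.08% and the PSMB10 ratio 8.43%, 8.29%, 6.33% and 5.60% for replicates 1 to 4. Control replicates 3 and 4 were the lowest of the 8 libraries in both of these ratios, and neither was lowest in the PSMB8 ratio.

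**Figure D3:**
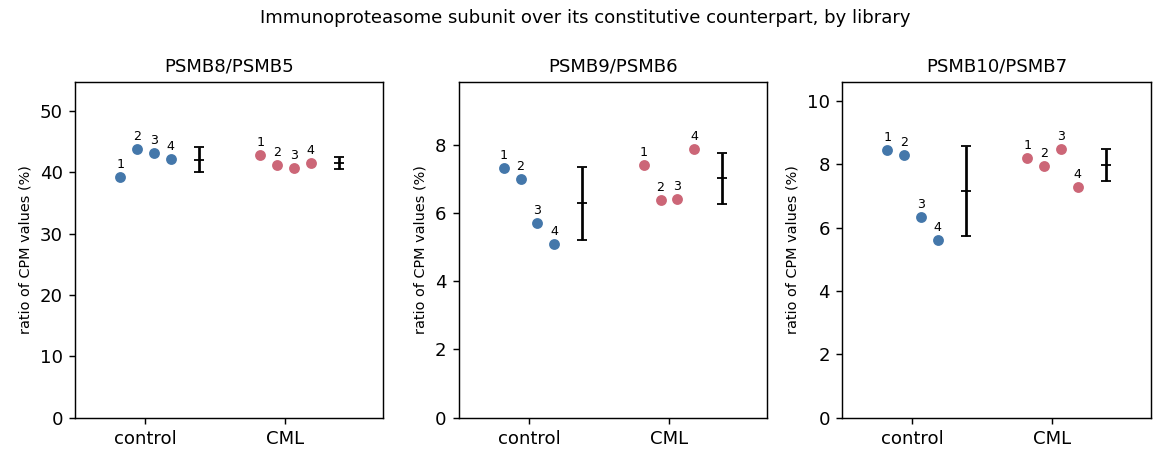
Ratio of each immunoproteasome subunit to its constitutive counterpart in percent of CPM values (vertical axes from 0) by library, with replicate numbers at the points and black bars for the mean ± SD. PSMB8 sits near 42% of PSMB5 in both groups, and PSMB9 and PSMB10 sit under 9% of their counterparts in all libraries.

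The spread between control libraries was larger than that between CML libraries for 8 of the 9 members, all except TAP2. The same was true of 63.9% of the 10769 genes that averaged 5 CPM or more, whose median coefficient of variation was 6.03% in control and 5.08% in CML libraries. Among the members the coefficient of variation in control libraries ran from 2.37% for TAP2 to 16.1% for PSMB9, and in CML libraries from 0.881% for HLA-C to 7.26% for PSMB9. The difference in spread between the groups was not tested.

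The libraries differed in how expression depended on GC content, and several members moved with this. The slope of a library's deviation from the 8-library mean on transcript GC content was 0.07, 0.02, 0.01 and -0.09 log2 units per 10 points of GC in control replicates 1 to 4, and 0.02, 0.01, 0.02 and -0.07 in CML replicates 1 to 4. Control replicate 4 and CML replicate 4 had the only negative slopes. Control replicate 1 had the steepest positive slope, 0.073, close in size to the -0.071 of CML replicate 4. The slope did not separate the groups (2-sided exact permutation p = 0.886). HLA-B, whose transcript has 58.9% GC, had a Pearson r of 0.97 with the slope over the 8 libraries (permutation p = 5.7e-04, adjusted over the 9 members 0.00513) and a Spearman rho of 0.83 (permutation p = 0.0154, adjusted 0.0692). Without both replicate 4 libraries, the farthest from the median slope, r was 0.93. Of the libraries then left, control replicate 1 had the steepest slope, 0.07, and the highest HLA-B value, 349 CPM. The remaining slopes lay between 0.01 and 0.02, and r without control replicate 1 as well was not computed. An r at least as high as the 0.97 over all 8 libraries was found in 0.213% of 9410 genes at or above 10 CPM, and an r over 0.7 in 13.8%.

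HLA-C, at 60.1% GC, had an r of 0.70 with the slope (permutation p = 0.0485, adjusted 0.109) and a rho of 0.90 (permutation p = 0.00456, adjusted 0.0411), with an r of 0.91 without both replicate 4 libraries. Control replicate 1, which had the steepest slope of those left, held the highest HLA-C value too, and r without it was not computed. TAPBP, at 57.1% GC, had an r of 0.80 (permutation p = 0.0124, adjusted 0.0371) and a rho of 0.69 (permutation p = 0.0694, adjusted 0.156). B2M, at 39.1% GC the member poorest in GC, had an r of -0.86 (permutation p = 0.00278, adjusted 0.0125) and a rho of -0.76 (permutation p = 0.0368, adjusted 0.110). For TAPBP and B2M the relation rested on the replicate 4 libraries, since r was 0.53 and -0.44 without them. An r under -0.7 was found in 19.1% of genes. For HLA-E, TAP1, TAP2, PSMB8 and PSMB9 r lay between -0.04 and 0.66 with adjusted permutation p-values of 0.145 or more. For PSMB8 r went from 0.08 to -0.85 without both replicate 4 libraries.

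Once each library had been corrected for GC content and transcript length, the SD of HLA-B over the 8 libraries was 0.02 on the log2 scale, compared with 0.07 before. The SD also became smaller for HLA-C (0.11 to 0.08), TAPBP (0.05 to 0.03), HLA-E (0.04 to 0.03) and B2M (0.04 to 0.03), it was larger for TAP2 (0.04 to 0.06) and PSMB8 (0.04 to 0.05), and it went from 0.09 to 0.09 for TAP1 and from 0.17 to 0.16 for PSMB9. For HLA-C the SD within control libraries went from 0.17 to 0.10 and that within CML libraries from 0.01 to 0.05, so that the CML group was less tight after the correction. With the corrected values 0 of 9 members passed the adjusted p of 0.3 (limma), while 827 of 12929 genes did (6.4%). With both replicate 4 libraries left out and the values as deposited, 0 of 9 members passed as well, while 321 of 17649 genes did. The log2 fold changes in that fit were 0.11 for TAP1 (limma adjusted p = 0.666) and 0.04 for PSMB9.

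**Figure D4:**
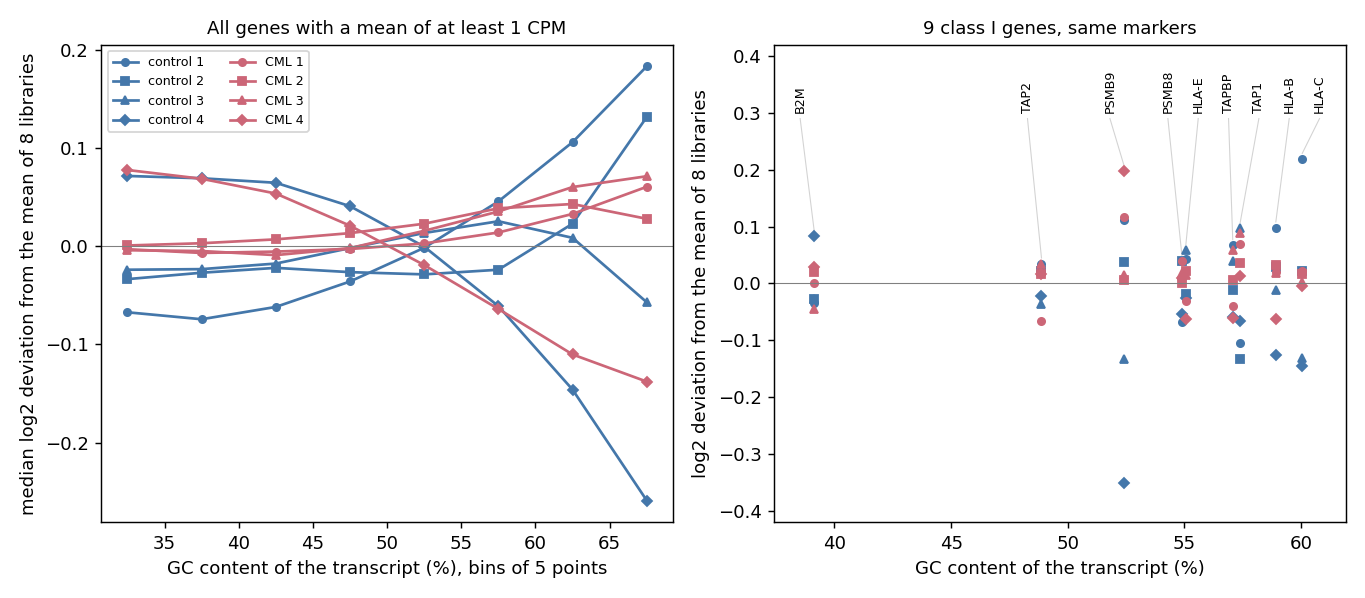
Left, median log2 deviation of each library from the mean of 8 libraries (vertical axis) for genes in bins of transcript GC content (horizontal axis, percent), with control in blue, CML in red and 1 marker per replicate. Right, the same deviation for the 9 members with the same colours and markers. Both replicate 4 libraries (diamonds) fall with GC content and hold B2M above 0 and HLA-B below 0, whereas B2M and HLA-B lie on the same side of 0 in control replicate 3 and CML replicate 2.

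Over the 8 libraries the members did not vary as 1 group. Of 36 pairs of members, 20 had a positive Pearson r, and the median r over all 36 was 0.09. An unadjusted permutation p under 0.05 was found in 5 pairs, and in 0 after adjustment over the pairs. HLA-B and HLA-C had an r of 0.82 (permutation p = 0.0244, adjusted 0.219) and a rho of 0.90 (permutation p = 0.00456, adjusted 0.129), and r was 0.98 without both replicate 4 libraries. HLA-E and TAPBP had an r of 0.88 (permutation p = 0.00717, adjusted 0.219) and a rho of 0.86 (permutation p = 0.0107, adjusted 0.129), and r was 0.89 without control replicate 3 and CML replicate 4. HLA-B and B2M had an r of -0.80 (permutation p = 0.0183, adjusted 0.219) and a rho of -0.48 (permutation p = 0.243, adjusted 0.673), which rested on the replicate 4 libraries, since r was -0.12 without them. B2M and TAPBP had an r of -0.80 (permutation p = 0.0156, adjusted 0.219) and a rho of -0.88 (permutation p = 0.00724, adjusted 0.129). HLA-B and TAPBP had an r of 0.71 (permutation p = 0.0421, adjusted 0.303) and a rho of 0.62 (permutation p = 0.115, adjusted 0.673). Without both replicate 4 libraries, r was -0.66 for B2M and TAPBP and 0.32 for HLA-B and TAPBP. After the GC correction these r values were, in the same order, 0.66, 0.69, -0.33, -0.34 and -0.18. The median over the pairs was -0.18, and 1 pair had an r over 0.7 compared with 4 before.

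Among 9402 other genes averaging 10 CPM or more, those whose levels over the 8 libraries were most like the mean z-score of the 9 members were TWF2 (r = 0.98), PDXK (r = 0.98), HSF1 (r = 0.98), NOP16 (r = 0.98) and GPAA1 (r = 0.97). Their transcripts had between 53.4% and 64.2% GC, and their adjusted p for CML against control lay between 0.897 and 0.964 (limma).

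Of the other genes of the pathway, 52 were analysed in 6 lists and 0 passed the adjusted p of 0.3 (limma, background 0.895%). Beside the counts of higher and lower genes in each list, 53.5% of all genes were higher with CML. Beside the counts with an unadjusted p under 0.05, 7.66% of all genes had one. Of those averaging 1 CPM or more, 58.8% were higher. Among other class I and class I-like genes, 9 of 11 listed were analysed, of which 1 was at 0 in all libraries, 5 were higher and 3 lower with CML by any amount, and the median log2 fold change was 0.01. HLA-L, a pseudogene, had a fold change of 0.12 and HFE, which controls iron uptake, 0.09 on the log2 scale (limma adjusted p = 0.897 and 0.8995). The HLA-L value was 0.03 without control replicate 1, and the HFE value was 0.04 without CML replicate 1 and 0.15 without control replicate 4.

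Of the 6 loading chaperones and trimming peptidases, 5 were lower and 1 higher with CML, with a median log2 fold change of -0.05 and no unadjusted p under 0.05. PDIA3 (ERp57), a thiol oxidoreductase of the loading complex, averaged 1278 ± 62.5 CPM in control and 1217 ± 18.1 CPM in CML, a log2 fold change of -0.07 (limma adjusted p = 0.749). Control replicate 4 held the highest PDIA3 value, 1370.5 CPM, and without it the fold change was -0.04. CALR (calreticulin), a chaperone that binds sugars on the heavy chain, averaged 6965 ± 143 and 6653 ± 219 CPM, a log2 fold change of -0.07 (limma adjusted p = 0.897). In both genes 0 of 4 CML libraries were above the control mean. With the GC correction, which was chosen after the data were seen, both passed 0.05 (limma adjusted p = 0.0126 for PDIA3 and 0.0448 for CALR), while 1.23% of all genes did.

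The 8 proteasome partners had a median log2 fold change of 0.02, with 6 higher and 2 lower and 1 unadjusted p under 0.05, that of PSMB5 (log2 fold change 0.05, limma adjusted p = 0.623), and PSMB10 had a fold change of 0.17 (adjusted p = 0.897), which was 0.06 without control replicate 4 and 0.25 without control replicate 1. Of the 14 transcriptional regulators of class I genes, 13 were higher and 1 lower, with a median of 0.05 and an unadjusted p under 0.05 for NFYC and NFKB1. NFYC, a subunit of the CCAAT-binding factor NF-Y, averaged 53.4 ± 2.84 CPM in control and 58.6 ± 1.94 CPM in CML (log2 fold change 0.13, limma adjusted p = 0.489). NFKB1, the p105/p50 subunit of NF-kappaB, averaged 103.6 ± 6.96 and 112 ± 1.02 CPM (log2 fold change 0.12, limma adjusted p = 0.609). The class I coactivator NLRC5 averaged 11.97 and 11.93 CPM, and IRF1 56.5 and 59.5 CPM, in control and CML libraries (limma adjusted p = 1 and 0.890).

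Of 6 genes of the interferon-gamma receptor chain, 5 were higher and 1 lower, with a median log2 fold change of 0.02. IFNGR2, the second chain of the receptor, averaged 58.2 ± 2.79 CPM in control and 63.3 ± 0.982 CPM in CML (log2 fold change 0.12, SE 0.03, limma adjusted p = 0.435). It was the only gene of the 6 whose groups did not overlap and the only one with an unadjusted p under 0.05. Its highest control value was 61.5 CPM and its lowest CML value 62.0 CPM. Groups did not overlap in 3.95% of all genes with a value above 0, and 7.66% of all genes had an unadjusted p under 0.05. Without control replicate 4, IFNGR2 and NFKB1 passed 0.3, 2 of the 52 other pathway genes, in a fit where 3.91% of all genes passed. PTPN2, a phosphatase that acts on JAK1, had a fold change of 0.04 (adjusted p = 0.897), which was 0.03 without control replicate 1 and 0.06 without control replicate 4. Of the class II genes, 9 of 10 listed were analysed, 8 were higher and 1 lower with a median of 0.09, and HLA-DMB, a chain of the chaperone that exchanges peptides on class II molecules, had the one unadjusted p under 0.05 (log2 fold change 0.19, limma adjusted p = 0.574). HLA-DRA averaged 63.6 ± 3.01 and 67.0 ± 2.35 CPM (adjusted p = 0.760, log2 fold change 0.07, and 0.04 without control replicate 3) and CD74 355.5 ± 19.2 and 380.01 ± 26.9 CPM (adjusted p = 0.828), so that class II transcripts were present in both groups. None of the 6 markers of the line that were analysed and none of the 3 markers of other cell types passed the adjusted p of 0.3 (limma). EGFR and CD44 had log2 fold changes of 0.07 and 0.06 (limma adjusted p = 0.623 and 0.753), and PECAM1 and CD14 were at -0.14 and -0.10 on the log2 scale (limma adjusted p = 0.851 and 0.962). With the GC correction EGFR and CD44 passed 0.3 (limma adjusted p = 0.0827 and 0.249), in a fit where 6.4% of genes passed. CD44 also passed without control replicate 4 (limma adjusted p = 0.241), where 3.91% of all genes did.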

How the data were processed

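Groups were taken from the sample titles. The authors deposited 1 table for the 8 libraries in CPM, which scale each read count to the size of its library, with versioned Ensembl identifiers and symbols. The submitters' processing notes name edgeR and hg38. The aligner, the counter and the annotation of this experiment are not given in the sources used here, and the labels name both NextSeq and HiSeq instruments. The methods describe scaling by TMM factors for the tumors and name TMM-scaled CPM as the input of the pathway analysis of tumors, xenografts and cell lines, and the columns here sum to between 986730 and 1014124, not to 1 common total. TMM scaling does not remove differences between libraries in GC content.

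Each library's values fell on steps worth 1 read, and 85.2% to 86.2% were whole reads within 0.02 of a read, so the counts were estimates and no count test was run. Intervals from 4 libraries a group limit the precision. Chi-square per degree of freedom between libraries of a group was 1.88 to 8.71, so no library was a copy of another.

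Rows with 1 symbol were averaged (17649 genes left of 17681 rows). For the comparison, limma 3.58.1 (R 4.3.3) was fitted to log2(CPM + 1) without a filter on low values and with a variance trend. Benjamini-Hochberg adjustment covered all genes, and the thresholds were 0.3 (the study's FDR) and 0.05. Fold changes are on the log2(CPM + 1) scale, which understates low genes such as PSMB9. The script was tested on simulated data. Single values were compared by exact permutation over 70 labellings, and correlations by permutation (scipy 1.17.1, Python 3.11.15), and figures were drawn with matplotlib 3.10.9.

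Transcript length and GC content came from GENCODE v44lift37, coordinates and promoter windows from RefSeq GRCh38.p14. HLA-E has no window here. For TAP1 and PSMB8 the start at the outer end of the gene was used. The GC correction removed, in each library, a quadratic dependence on GC content and log2 length over the 12929 genes with at least 1 CPM, and was chosen after the data were seen.

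The members and lists were chosen with earlier results of these data known. Named are the members, the 2 genes with the smallest p and a mean of at least 1 CPM of each other list (class I-like genes, chaperones and peptidases, proteasome partners, regulators, interferon-gamma receptor chain, class II genes, markers of the line and of other cells), genes of any list past 0.3, the subunit pairs, overlapping genes and the 5 genes most like the members. VIM, KRT8, KRT18, PGR, NLRC5, IRF1, CANX and CD74 are named outside this rule, after their values were seen. Alternatives were a pseudocount of 0.1 CPM, a minimum mean of 1 CPM, median centring, quantile normalization, no trend, a replicate block, each library left out in turn and both replicate 4 libraries left out.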

Additional observations from a re-analysis of the deposited data

Results flagged for a closer look

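Of 58 groups of 4 libraries checked for a library far from the other 3, 4 met the criterion by the size of its gap, where chance gives about 2.9 (1 in 20). HLA-B was lowest in CML replicate 4 at 312 CPM, with the other 3 CML libraries between 330.2 and 334 CPM. B2M was highest in control replicate 4 at 699.9 CPM, with the other 3 control libraries between 645 and 649 CPM. HLA-L was lowest in control replicate 1 at 0.894 CPM, with the other 3 control libraries between 1.42 and 1.51 CPM, a level at which 1 read weighs between 0.0535 and 0.0622 CPM. The slope of expression on GC content was lowest in CML replicate 4 at -0.07 log2 units per 10 points (-0.0709), with the other 3 CML libraries between 0.01 and 0.02. Both replicate 4 libraries thus hold 3 of these 4 values. Whether the GC slope accounts for the HLA-B and B2M values in them was not tested.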

How the results depend on the processing

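Of 487 recomputed values, 465 kept their direction and side of the threshold or moved by less than the replicate spread. The count of members called at 0.3 was 0 and became 1 (TAP1) without control replicate 3 (range over the libraries left out, 0 to 1). The log2 fold change changed sign in 7 of 17 alternatives for HLA-B, 5 for HLA-C, 9 for B2M, 10 for TAP2 and 1 for TAPBP, all within -0.04 to 0.09, and in none for HLA-E, TAP1 (0.08 to 0.15), PSMB8 (0.01 to 0.05) and PSMB9 (0.04 to 0.23). The count of other pathway genes called was 0 and became 2 without control replicate 4 (IFNGR2 and NFKB1, range over the libraries left out 0 to 2), in a fit that called 3.91% of all genes. It was 7 with the GC correction and 7 with the GC correction and a replicate block, where 6.4% of all genes were called without the block: CALR, PDIA3 and CANX were lower and CD74, IFNGR2, NFKB1 and NFYC higher with CML, and the cause was not tested.

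Over all genes 158 were called, between 20 (without CML replicate 2) and 690 (without control replicate 4) with 1 library left out, 321 without both replicate 4 libraries, and 827 and 859 with the GC correction, without and with the block. Median centring gave 73 calls, of which 46 were higher and 27 lower (119 and 39 as deposited), and shifted the median of all genes from 0.01 to -0.01, and quantile normalization gave 90 higher and 54 lower.

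Same-numbered control and CML libraries deviated together with r between -0.06 and 0.33 (mean 0.11), compared with a mean of -0.04 for pairs with different numbers. The highest r of all pairs were 0.33 for replicate 4 and 0.20 for replicate 1. The r was not over 0.1 in each of the 4 same-numbered pairs, so the numbers were not taken as pairs. The fit with the replicate block called 0 members and 189 of all genes, with TAP1 at an adjusted p of 0.511 (limma). For the ratios of PSMB8, PSMB9 and PSMB10, signs of the same-numbered differences were flipped in an exact test of their mean. The p-values of this test, adjusted over these ratios, were 0.875, 0.75 and 0.75. With signs of only 4 differences to flip, it could not give a p under 0.05 at any values, so no conclusion is drawn from it. The intervals given for each member, from 4 libraries a group, set the precision.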
